A study of Mus musculus with 8 samples.

Results

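The 51 genes described here encode interferon-stimulated effectors, the proteins that carry out the antiviral programme which interferons switch on in a cell. They were taken by gene symbol from the 25238 genes of the deposited tables, and all 51 had at least 10 reads in at least 1 library. Of these, 50 entered the test across 11230 genes. The exception was Isg20, an RNA exonuclease gene, whose reads differed between tables by more than the tolerance set for the joint fit.

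The libraries hold RNA of microglia, the tissue macrophages of brain and spinal cord, sorted as CD11b+/CD45inter cells from C57BL/6 mice given as 4 to 6 weeks old, in 8 libraries and 5 groups. All mice carried floxed alleles of the arginine methyltransferase gene Prmt1. PRMT1FL mice had no Cre, and PRMT1Cx3cr1-KO mice also carried a tamoxifen-inducible Cre under the Cx3cr1 promoter, which is active in microglia and in other myeloid cells. The methods give tamoxifen to both genotypes before the diet. The normal diet groups, labelled 11 weeks and with no CD11c gate named, had 3 PRMT1FL libraries and 2 PRMT1Cx3cr1-KO libraries. The cuprizone (CPZ) groups, labelled 5 weeks and fed 0.2% of this copper chelator that strips myelin, were gated on the surface integrin CD11c. There was 1 library each for CD11c low cells of PRMT1FL, CD11c high cells of PRMT1FL and CD11c low cells of PRMT1Cx3cr1-KO, and where 3 CPZ values follow one another below they are in this order. CPZ therefore differed from normal diet by the gate and the week label too, and genotype by the Cre driver. These cannot be told apart.

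Interferons reach a cell through paired receptor chains that activate JAK kinases and STAT transcription factors. Type I interferon acts through a complex that holds STAT2 and IRF9 and binds the interferon-stimulated response element (ISRE), and interferon gamma acts through the gamma-activated site (GAS). The genes induced in this way sense foreign nucleic acid, block translation, degrade RNA, trap virions or attack the vacuoles of intracellular pathogens. Interferon-responsive microglia are known from development, ageing, infection and demyelination.

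The libraries held 1579737 to 3519969 reads in genes, with PRMT1FL CD11c high the shallowest, and 10234 to 12259 genes had at least 10 reads. Values below are scaled reads, the reads recovered from the deposited values divided by 1 factor per library, and they are comparable between libraries but not between genes. Prmt1, counted over the whole gene and so no check of the deleted exons alone, had 86.3, 91.8 and 91.0 scaled reads in PRMT1FL on normal diet, 60.8 and 82.6 in PRMT1Cx3cr1-KO, and 118, 102 and 81.0 on CPZ. The 3 libraries labelled PRMT1Cx3cr1-KO lay below all PRMT1FL libraries. Itgax, which encodes CD11c, was highest at 1884 in the CD11c high library, against 660.3 and 348 in the CD11c low libraries and 79.3, 50.4 and 54.1 in PRMT1FL on normal diet. Microglia markers were read in every library. A gene counts as higher or lower below when it passed limma at an adjusted p under 0.05 with a log2 fold beyond 1 in either direction. Nothing in the sources used here says that the normal-diet libraries came from separate animals, so these p-values measure the spread between those libraries. Each CPZ library is assumed to vary as they do.

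Promoters of such genes often carry elements recognised by these factors, and some are shown first because genes with like elements moved in opposite directions below. RefSeq start sites (GRCm38.p6) were found for 40 of the 51 genes. The ISRE core, GAAA and GAAA with any 2 bases between them, searched on both strands from 250 bases before to 50 bases after each start, was present in 22 of the 40 (55%), against 3.99% of the 27025 genes with such a window. The GAS core TTCNNNGAA was present in 10 of the 40 (25%), against 9.55% of genes. A match describes letters and no binding was measured. The windows below run 5′ to 3′ on the strand of the gene with the core in capitals, which reads TTTC and TTTC where it lies on the other strand.

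Ifit1: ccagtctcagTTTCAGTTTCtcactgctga
Isg15: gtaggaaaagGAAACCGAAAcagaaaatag
Oas3: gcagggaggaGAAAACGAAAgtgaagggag
Rsad2: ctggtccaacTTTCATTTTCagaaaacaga
Slfn5: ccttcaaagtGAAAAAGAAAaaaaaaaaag
Gbp2: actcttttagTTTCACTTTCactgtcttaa
Gbp5: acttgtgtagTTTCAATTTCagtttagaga
Gbp7: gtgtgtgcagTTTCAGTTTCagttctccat

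In GRCm38.p6 these windows lie at chr19:34640794-34640823, chr4:156200871-156200900, chr5:120777715-120777744, chr12:26456553-26456582, chr11:82951937-82951966, chr3:142620594-142620623, chr3:142496759-142496788 and chr3:142530273-142530302 in that order, with the genes for Isg15, Oas3 and Rsad2 on the minus strand. The cores start 85, 72, 75, 120, 155, 59, 165 and 53 bases before the start site. The same 10 letters stand in capitals for Ifit1, an RNA-binding antiviral protein gene, and for Gbp7, a guanylate-binding protein gene. Their 250 bases upstream of the start are given whole for that reason, at chr19:34640639-34640888 and chr3:142530086-142530335 on the plus strand.

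Ifit1 upstream: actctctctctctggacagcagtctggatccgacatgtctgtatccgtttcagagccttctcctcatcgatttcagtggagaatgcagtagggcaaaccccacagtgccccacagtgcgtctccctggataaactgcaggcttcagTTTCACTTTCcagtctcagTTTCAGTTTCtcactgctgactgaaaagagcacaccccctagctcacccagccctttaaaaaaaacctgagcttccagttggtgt
Gbp7 upstream: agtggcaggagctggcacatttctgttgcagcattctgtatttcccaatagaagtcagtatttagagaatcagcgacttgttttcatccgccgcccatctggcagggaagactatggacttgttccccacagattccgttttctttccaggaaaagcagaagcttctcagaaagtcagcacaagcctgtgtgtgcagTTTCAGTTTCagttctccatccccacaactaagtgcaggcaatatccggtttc

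The capitals mark every ISRE core in these stretches, 2 for Ifit1 and 1 for Gbp7. The GAS core is not marked, and the searched window held 2 of these for Gbp7 and 0 for Ifit1. Over the 22 tested genes with an ISRE core the median log2 fold of PRMT1FL CD11c low on CPZ over normal diet was 1.41, and over the 17 without it was 1.22. For PRMT1FL CD11c high these medians were 1.52 and 1.67, and for PRMT1Cx3cr1-KO 0.83 and 0.86, so neither set was higher throughout. In PRMT1FL CD11c low the ranges overlapped, from -1.61 to 3.99 with the core and from -0.04 to 3.80 without.

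Did loss of PRMT1 shift the effector genes on normal diet? No effector gene passed the test between genotypes there. By limma 0 of 50 were higher and 0 lower, and across all genes 0% were called in either direction. edgeR and DESeq2 likewise called 0 of the 50. At an unadjusted p under 0.05 there were 3 of 50, against 965 of 11230 genes, and the lowest adjusted p among the 50 was 0.565. The median log2 fold was -0.05, against -0.00 over all genes.

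Isg15, a ubiquitin-like protein gene, had 17.5, 11.2 and 18.9 scaled reads in PRMT1FL and 26.8 and 22.1 in PRMT1Cx3cr1-KO, a log2 fold of 0.62 ± 0.27 (SE; adjusted p = 0.579). Oas3, which encodes a synthase of the oligoadenylates that activate RNase L, had 7.0, 11.2 and 6.56 against 5.52 and 2.56, with a log2 fold of -0.91 ± 0.40 (adjusted p = 0.579). Dhx58, the RNA sensor LGP2, had 109.6, 107 and 104 against 74.2 and 98.0, with a log2 fold of -0.32 ± 0.14 (adjusted p = 0.565). The genotypes did not overlap for these 3 genes, Isg15 lying above and the other two below in PRMT1Cx3cr1-KO, but none passed. In all, 3 of 50 genes (Ifit3b, Isg15 and Trim25) were above every PRMT1FL library in both PRMT1Cx3cr1-KO libraries, against 12.3% of all genes, and 6 were below, against 13.4%.

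Levels on normal diet covered a wide range between genes. Per kilobase of transcript and adjusted for library depth, Ly6e, a membrane protein gene, stood highest in PRMT1FL at 114, followed by the secreted glycoprotein gene Lgals3bp at 92.2 and the ubiquitin ligase gene Trim30a at 51.2. The lowest were Ifi44 at 0.601, Oas3 at 0.628 and Ifit3b at 0.938. On CPZ the order at the top began in PRMT1FL CD11c low with Lgals3bp at 206, followed by Ifitm3 at 124, an inhibitor of virus entry that stood at 22.7 on normal diet.

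How did the effector genes differ between CPZ and normal diet? Most stood higher on CPZ. In PRMT1FL CD11c low, 30 of 50 genes were higher and 1 lower, against 8.73% and 4.1% of all genes, and the median log2 fold was 1.33 against -0.03. In PRMT1FL CD11c high, 34 were higher and 1 lower, against 9.03% and 7.22%, with a median of 1.64 against -0.01. In PRMT1Cx3cr1-KO CD11c low over PRMT1Cx3cr1-KO normal diet, 21 were higher and 2 lower, against 5.1% and 3.37%, with a median of 0.87 against -0.00. Ifit3b, Oas3, Oasl1 and Ifi44 had a mean under 10 scaled reads in PRMT1FL on normal diet and entered the test through the CPZ libraries in which they were high. Without these 4 genes 26, 30 and 19 of 46 were higher. The PRMT1FL comparisons share their 3 normal-diet libraries. The CD11c low comparisons of the genotypes share no library, but their errors come from 1 fit with the spread of all normal-diet libraries. How many of all genes were higher in both was not counted. Of the effector genes 20 were higher in both, which is 66.7% of the PRMT1FL list and 95.2% of the PRMT1Cx3cr1-KO list. Only Samd9l was on the second list alone. Without the filter on low values the second list fell from 21 to 9 genes. All of these values are sums over sorted cells, in which more responding cells and more RNA per cell cannot be told apart.

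**Figure D1:**
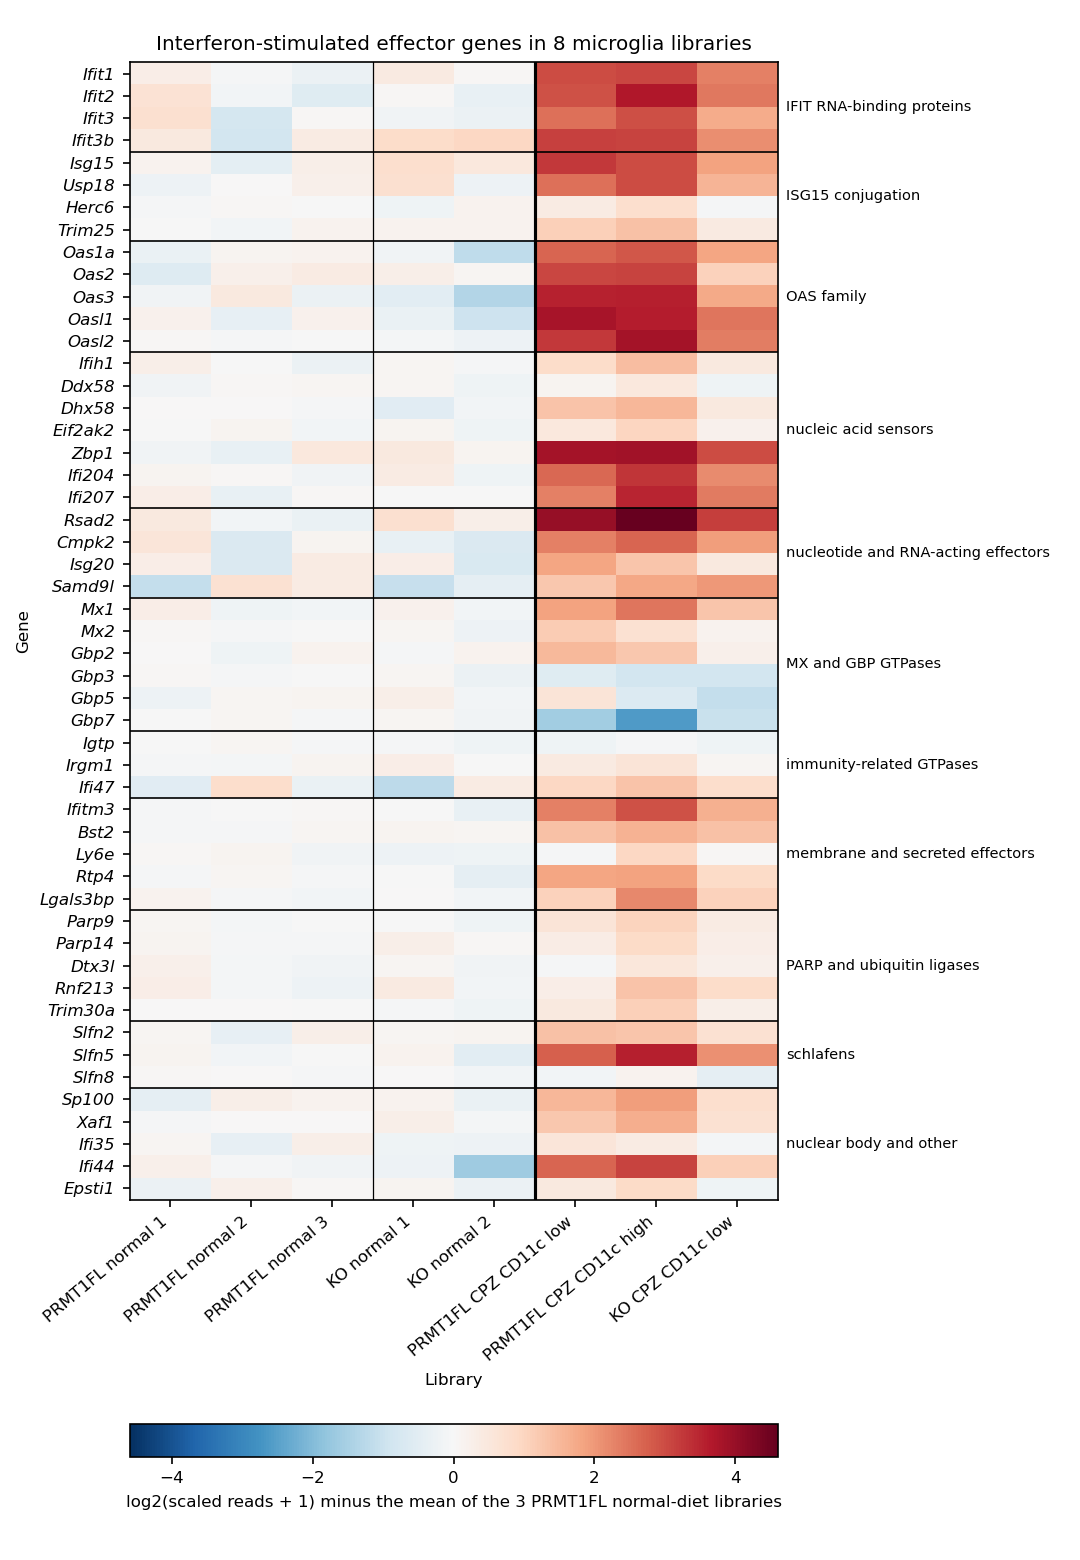
Heat map of all 51 effector genes (rows, grouped by role) in the 8 libraries (columns), coloured by log2(scaled reads + 1) minus the mean of the 3 PRMT1FL normal-diet libraries. The 3 CPZ libraries to the right of the thick line are redder than the 5 normal-diet libraries for most genes, with Gbp3 and Gbp7 blue in all 3.

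The IFIT genes, whose products bind viral RNA and hold back its translation, lie next to one another on chromosome 19 and rose together. All 4 were higher in both PRMT1FL CPZ libraries and 3 of 4 in PRMT1Cx3cr1-KO, with Ifit3b in the test only through its CPZ values. Ifit1 (chromosome 19, 34640889 to 34650009) had 17.5, 13.4 and 11.5 scaled reads in PRMT1FL and 18.9 and 14.5 in PRMT1Cx3cr1-KO on normal diet, against 119, 125 and 73.3 in the CPZ libraries. Every CPZ library lay above every normal-diet library, and PRMT1Cx3cr1-KO was the lowest of the 3. The log2 folds were 3.00 ± 0.34 (adjusted p = 2.30e-04), 3.08 ± 0.34 (adjusted p = 9.30e-05) and 2.08 ± 0.37 (adjusted p = 0.00376). Ifit2 had the most reads of the family, with 106, 61.6 and 45.1 in PRMT1FL and 68.6 and 52.8 in PRMT1Cx3cr1-KO on normal diet against 513, 864 and 365 on CPZ. Ifit3b, with a log2 fold of 1.25 ± 0.61 in PRMT1Cx3cr1-KO (adjusted p = 0.183), was the 1 that did not pass there. Ifit3 and Ifit3b share 40.7% and 35.3% of their 76-base windows with each other, so their counts are uncertain apart. The call on Ifit3 in PRMT1Cx3cr1-KO was lost without PRMT1Cx3cr1-KO normal-diet library 2 (adjusted p = 0.0545).

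ISG15 is joined to other proteins like ubiquitin. Isg15 (chromosome 4, 156199424 to 156200818) had 17.5, 11.2 and 18.9 scaled reads in PRMT1FL and 26.8 and 22.1 in PRMT1Cx3cr1-KO on normal diet and 156, 131 and 58.1 on CPZ. The groups did not overlap, and the log2 folds over normal diet were 3.25 ± 0.35, 3.00 ± 0.35 and 1.22 ± 0.37 (adjusted p = 1.45e-04, 1.11e-04 and 0.0434). Usp18, whose product strips ISG15 from its targets and damps the type I receptor, rose likewise, by log2 folds of 2.54, 3.00 and 1.31. In PRMT1Cx3cr1-KO both calls depended on single libraries. Without PRMT1FL normal-diet library 3 or PRMT1Cx3cr1-KO library 1 or 2, Isg15 had adjusted p of 0.0535, 0.0734 and 0.138. Usp18 had 0.0573 and 0.0633 without PRMT1FL library 2 or 3, and 0.142 with a log2 fold of 0.82 without PRMT1Cx3cr1-KO library 2. Trim25, a ubiquitin ligase that acts on the RNA sensor RIG-I, was higher in both PRMT1FL libraries (1.10 and 1.34) and had 0.24 in PRMT1Cx3cr1-KO (adjusted p = 0.245). Herc6, which in the mouse encodes the ligase that attaches ISG15, was called in none of the 3, with values of 0.38, 0.76 and -0.04.

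The OAS genes on chromosome 5 had the largest class medians in PRMT1FL. All 5 were higher in each PRMT1FL CPZ library and 4 of 5 in PRMT1Cx3cr1-KO, and the class median log2 fold was 3.24, 3.56 and 2.51. Oas3 and Oasl1 are among the genes that entered the test only through CPZ. Oasl2, an OAS-like protein gene, had 58.3, 53.7 and 54.9 scaled reads in PRMT1FL and 52.1 and 47.7 in PRMT1Cx3cr1-KO on normal diet against 535, 793 and 289.5 on CPZ. The normal-diet libraries differed little among themselves, and its log2 folds were 3.24 ± 0.15 (adjusted p = 1.40e-06), 3.81 ± 0.15 (adjusted p = 1.23e-07) and 2.51 ± 0.16 (adjusted p = 1.31e-05). Oas2 (chromosome 5, 120730333 to 120749848) had 28.0, 50.4 and 55.7 in PRMT1FL and 51.3 and 46.0 in PRMT1Cx3cr1-KO on normal diet, 369 and 373 in the PRMT1FL CPZ libraries and 89.5 in PRMT1Cx3cr1-KO. That last value lay above all normal-diet libraries but did not pass, at 0.87 ± 0.34 (adjusted p = 0.107). Oas3 and Oasl1 started lower, with 7.0, 11.2 and 6.56 for Oas3 and 10.5, 6.72 and 10.7 for Oasl1 in PRMT1FL on normal diet, and stood at 103 and 139.7 in CD11c low. Oas1a shares 47.3% of its windows with other genes, Oas1g first, and is uncertain for that reason.

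**Figure D2:**
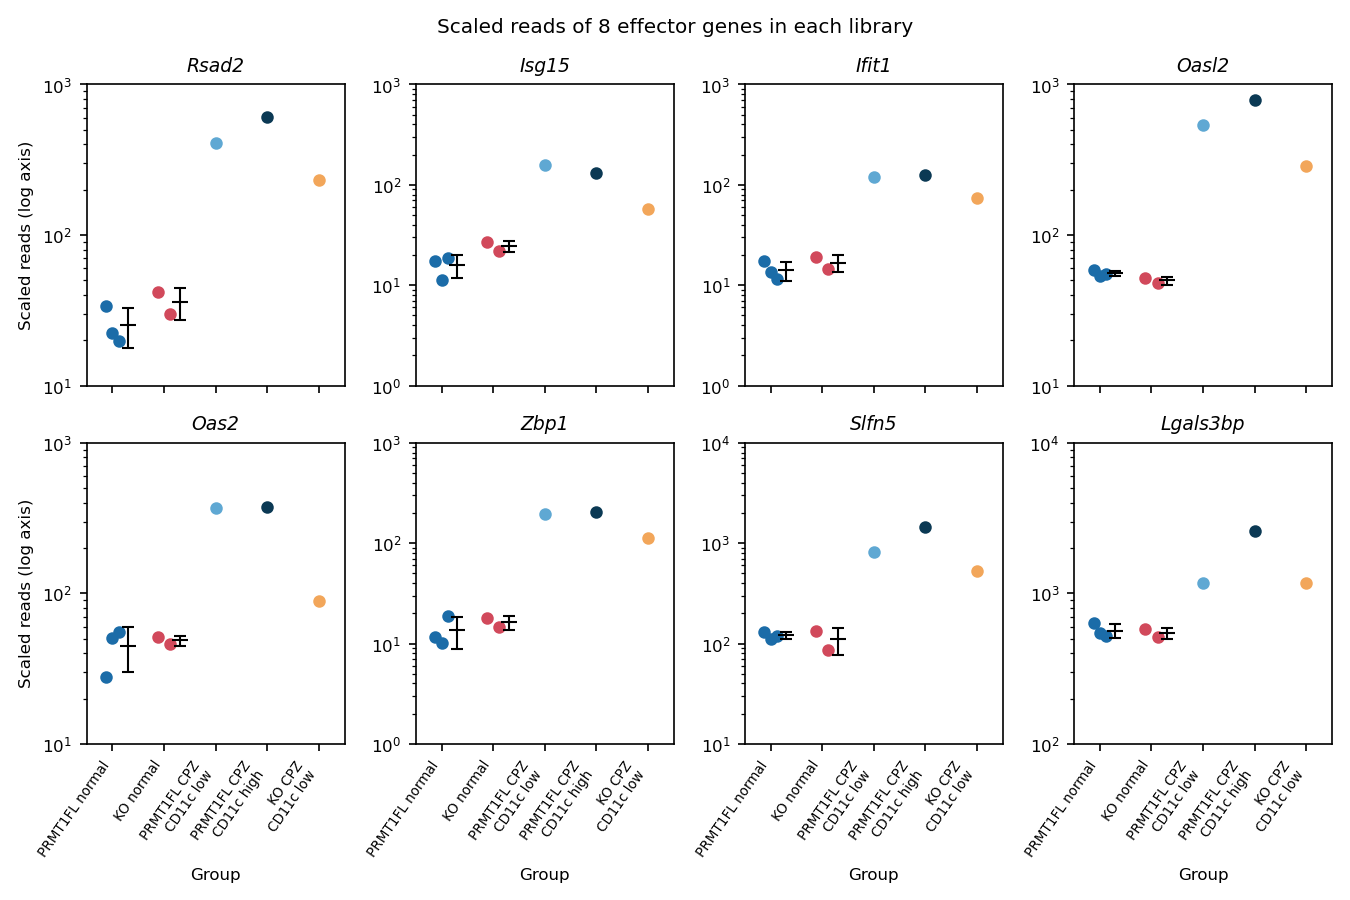
Scaled reads (log axis) of 8 effector genes in each library by group, with points for libraries and, in the normal-diet groups, a bar for the mean with SD (n = 3 PRMT1FL, n = 2 KO, which stands for PRMT1Cx3cr1-KO). The CPZ points lie above all normal-diet points for each of the 8 genes, and for Oas2 the PRMT1Cx3cr1-KO point at 89.5 is far below the PRMT1FL points at 369 and 373.

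Among the nucleic acid sensors the response was uneven. Zbp1, which binds left-handed nucleic acid and can start necroptosis, had 11.7, 10.1 and 18.9 scaled reads in PRMT1FL and 18.1 and 14.5 in PRMT1Cx3cr1-KO on normal diet and 197, 205 and 111 on CPZ. Its log2 folds of 3.82 ± 0.37, 3.87 ± 0.37 and 2.71 ± 0.39 were among the largest of all 50 (adjusted p = 7.68e-05, 2.90e-05 and 0.00125). The PYHIN family genes Ifi204 and Ifi207, neighbours on chromosome 1, also rose in all 3, Ifi204 by 2.66, 3.30 and 2.09 and Ifi207 by 2.31, 3.49 and 2.41. Ifi204 shares 20.6% of its windows with Ifi211, Mndal and Ifi207. The cytoplasmic RNA sensors were mixed. Dhx58 (LGP2) was higher in both PRMT1FL CPZ libraries, with 269, 313 and 147 scaled reads on CPZ. On normal diet it had 109.6, 107 and 104 in PRMT1FL and 74.2 and 98.0 in PRMT1Cx3cr1-KO. Ddx58 (RIG-I) had 252, 290.0 and 297 in PRMT1FL and 297 and 244 in PRMT1Cx3cr1-KO under normal feeding, then 306, 393 and 246 on CPZ, with no call in the 3 comparisons. Ifih1 (MDA5) was higher in PRMT1FL CD11c high only, at 1.44 ± 0.18 (adjusted p = 1.86e-04), with 0.84 in CD11c low and 0.45 in PRMT1Cx3cr1-KO. Eif2ak2, the kinase PKR that halts translation on double-stranded RNA, stayed within the fold limit at 0.50, 0.97 and 0.24.

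Rsad2, whose product viperin makes a chain-terminating nucleotide, had the largest fold of the 50 genes in both PRMT1FL CPZ libraries. It had 33.8, 22.4 and 19.7 scaled reads in PRMT1FL and 41.8 and 29.8 in PRMT1Cx3cr1-KO on normal diet, against 407, 608 and 233 in the CPZ libraries. These lay far above every normal-diet library, at 15.9-fold, 23.7-fold and 6.45-fold, or 3.99 ± 0.30, 4.57 ± 0.30 and 2.69 ± 0.32 on the log2 scale (adjusted p = 2.16e-05, 2.77e-06 and 4.19e-04). Cmpk2, a mitochondrial nucleotide kinase gene that neighbours Rsad2 on chromosome 12, rose by 2.32, 2.67 and 2.44. Samd9l, an antiviral restriction factor gene, was with Gbp7 one of the genes highest in PRMT1Cx3cr1-KO among the CPZ libraries. It had 9.33, 34.7 and 27.9 in PRMT1FL and 9.47 and 15.3 in PRMT1Cx3cr1-KO on normal diet versus 50.8, 74.2 and 85.7 on CPZ, and it passed in PRMT1FL CD11c high (1.77 ± 0.60) and PRMT1Cx3cr1-KO (2.73 ± 0.64) but not in PRMT1FL CD11c low (1.24 ± 0.60). The first call was lost without PRMT1FL normal-diet library 3 (adjusted p = 0.0586) and the second without PRMT1Cx3cr1-KO library 1 (adjusted p = 0.0581). The untested Isg20 had 16.3, 7.84 and 17.2 scaled reads in PRMT1FL and 16.6 and 7.67 in PRMT1Cx3cr1-KO on normal diet, from 7 to 21 reads, and 48.5, 33.2 and 18.1 on CPZ. Each CPZ value lay above all normal-diet libraries, but the last only narrowly. The deposited values disagree on the reads of this gene, so that order is uncertain.

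Effectors at the membrane and outside the cell were higher for 4 of 5 genes in each of the 3 comparisons. Lgals3bp in PRMT1FL CD11c low came inside the fold limit without PRMT1FL normal-diet library 3, at 0.99, and Rtp4 in PRMT1Cx3cr1-KO without PRMT1Cx3cr1-KO library 2, at 0.90. Ifitm3 had 39.7, 40.3 and 42.6 scaled reads in PRMT1FL and 40.2 and 32.4 in PRMT1Cx3cr1-KO on normal diet and 208, 318 and 128 on CPZ, without overlap, and log2 folds of 2.32 ± 0.21, 2.93 ± 0.21 and 1.79 ± 0.22. Bst2 (tetherin), which holds virions at the cell surface, rose in both genotypes, by 1.34 and 1.23 in the CD11c low libraries. The exception was Ly6e, with -0.05 in PRMT1FL CD11c low and 0.95 in CD11c high, and it had the most reads of the class on normal diet. Slfn5, of the schlafen family that acts on RNA and DNA, had 132, 111 and 119.7 in PRMT1FL and 134 and 86.0 in PRMT1Cx3cr1-KO under normal feeding, then 809, 1444 and 525 on CPZ. Its log2 folds were 2.74 ± 0.21, 3.57 ± 0.21 and 2.28 ± 0.22 (adjusted p = 2.16e-05, 1.15e-06 and 1.28e-04). Its neighbour Slfn8 on chromosome 11 had -0.14, 0.16 and -0.35 with no call, while Slfn2 was higher in both PRMT1FL libraries (1.34 and 1.28).

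The PARP and ubiquitin ligase class was higher for 0 of 5 genes in both CD11c low libraries and for 3 of 5 in PRMT1FL CD11c high. Rnf213, a very large ubiquitin ligase gene, had 1067, 814 and 722 scaled reads in PRMT1FL and 1136 and 784 in PRMT1Cx3cr1-KO on normal diet and 1058, 2122 and 1554 on CPZ. Only CD11c high passed, at 1.31 ± 0.24 (adjusted p = 0.00171), and the PRMT1FL CD11c low value lay inside the normal-diet range. Trim30a and the ADP-ribosyltransferase gene Parp9 were the other two, at 1.10 and 1.02, the latter at 0.97 and inside the fold limit without PRMT1FL normal-diet library 2. Parp9 and its partner Dtx3l overlap by 558 bases on opposite strands, and how strand was counted is not given in the sources used here. Among the remaining genes, Sp100 of the nuclear bodies, the pro-apoptotic Xaf1 and Ifi44 were higher in both PRMT1FL libraries and not called in PRMT1Cx3cr1-KO, and Ifi35 and Epsti1 were called in none.

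**Figure D3:**
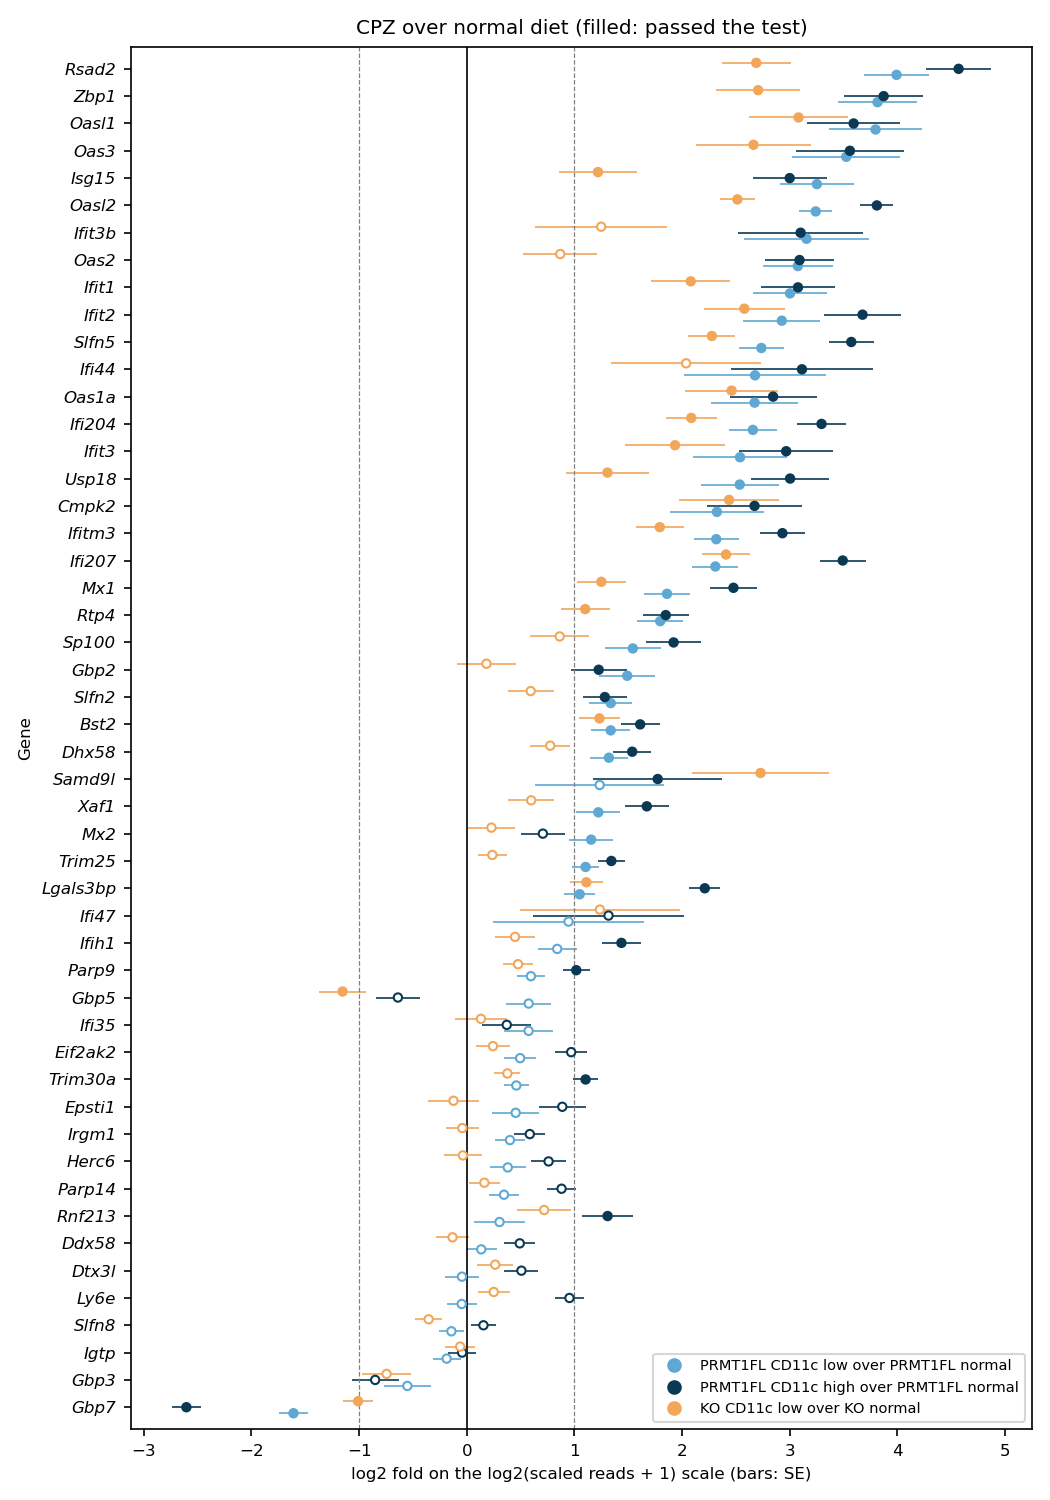
Log2 fold of each of the 50 tested effector genes on CPZ over the normal diet of its own genotype, with SE bars, for each CPZ library (KO stands for PRMT1Cx3cr1-KO), filled where the gene passed the test and with dashed lines at the fold limit. Rsad2 is at the top with 3.99 in PRMT1FL CD11c low, and Gbp7 at the bottom with -1.61.

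The GTPases split. Mx1, whose product blocks influenza-like viruses in mice with an intact allele, rose in all 3 comparisons. It had 98.0, 68.3 and 72.1 scaled reads in PRMT1FL and 89.2 and 71.6 in PRMT1Cx3cr1-KO on normal diet and 288, 442 and 191 on CPZ, and log2 folds of 1.86 ± 0.22, 2.48 ± 0.22 and 1.25 ± 0.23 (adjusted p = 2.57e-04, 1.73e-05 and 0.00485). Mx2 passed in PRMT1FL CD11c low alone, at 1.16 against 0.71 and 0.23.

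The guanylate-binding proteins, large GTPases that coat and break pathogen vacuoles, moved in different directions although Gbp5, Gbp7, Gbp3 and Gbp2 follow one another on chromosome 3. Gbp7 (chromosome 3, 142530336 to 142550151) had 423, 463 and 413 scaled reads in PRMT1FL and 466 and 390.2 in PRMT1Cx3cr1-KO on normal diet, against 141, 70.3 and 211 in the CPZ libraries. All CPZ libraries lay below all normal-diet libraries. It fell, with log2 folds of -1.61 ± 0.13, -2.60 ± 0.13 and -1.01 ± 0.14 (adjusted p = 3.96e-05, 5.94e-07 and 0.0012). Its promoter holds the same 10 capital letters as that of Ifit1 above, but also 2 GAS cores against 0 for Ifit1. Gbp7 shares 11.4% of its windows with Gm43802 and Gbp3. Gbp3 had 96.8, 89.6 and 91.0 in PRMT1FL and 99.4 and 75.8 in PRMT1Cx3cr1-KO on normal diet versus 62.7, 50.8 and 51.4 on CPZ, again all lower, at -0.55, -0.85 and -0.74, inside the fold limit. These 2 were the only effector genes of the 50 below all normal-diet libraries in the 3 CPZ libraries, against 17.1% of all genes, while 37 of 50 were above in all 3, against 19% of all genes.

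Gbp2 rose in both PRMT1FL CPZ libraries. It had 39.7, 33.6 and 43.4 scaled reads in PRMT1FL and 37.1 and 43.4 in PRMT1Cx3cr1-KO on normal diet and 111, 91.8 and 45.7 on CPZ, with log2 folds of 1.49 ± 0.26, 1.23 ± 0.26 and 0.18 ± 0.27, of which the last did not pass. The difference between genotypes in this change, -1.31 ± 0.38, did not pass either (adjusted p = 0.126). Gbp5 (chromosome 3, 142496934 to 142522344), which promotes inflammasome assembly, had 117, 148 and 151 in PRMT1FL and 165 and 124 in PRMT1Cx3cr1-KO on normal diet, then 205 in PRMT1FL CD11c low, 87.9 in CD11c high and 63.8 in PRMT1Cx3cr1-KO. It was thus above the normal-diet libraries in the first and below them in the others. The log2 folds were 0.58 ± 0.21 (adjusted p = 0.058), -0.64 ± 0.21 (adjusted p = 0.033) and -1.15 ± 0.22 (adjusted p = 0.00571), of which the last passed. Without PRMT1Cx3cr1-KO normal-diet library 1, Gbp5 and Gbp7 in PRMT1Cx3cr1-KO came inside the fold limit, at -0.95 and -0.88, and 0 genes were lower there. The immunity-related GTPases, which also act on vacuoles, were called for 0 of 3 genes in each comparison. Igtp had 215, 233 and 211 in PRMT1FL and 213 and 191 in PRMT1Cx3cr1-KO under normal feeding, then 193, 213 and 193 on CPZ, within the normal-diet range, and Irgm1 had log2 folds of 0.40, 0.59 and -0.04. Both have the ISRE core in their promoters.

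**Figure D4:**
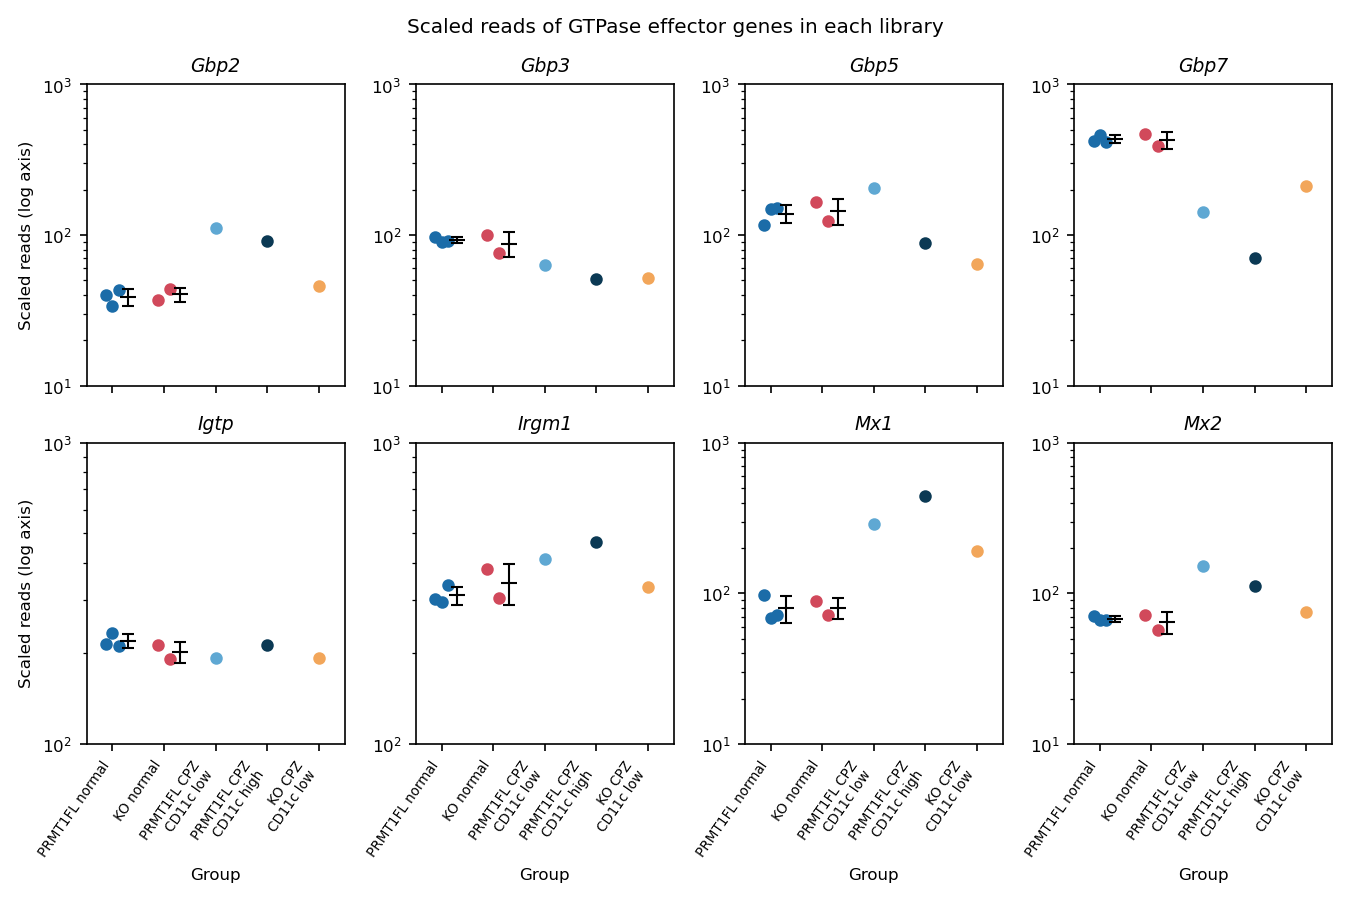
Scaled reads (log axis) of 8 GTPase effector genes in each library by group, drawn as points with the mean and SD of the normal-diet groups (n = 3 PRMT1FL, n = 2 KO, which stands for PRMT1Cx3cr1-KO). Gbp7 and Gbp3 are lower in all CPZ libraries, Mx1 is higher in all, and Gbp5 runs from 205 in PRMT1FL CD11c low to 63.8 in PRMT1Cx3cr1-KO.

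Counted by library, 43 of 50 effector genes in CD11c low PRMT1FL cells, 46 in their CD11c high cells and 39 in PRMT1Cx3cr1-KO lay above all 5 normal-diet libraries, against 33.2%, 36.3% and 32.3% of all genes. The exceptions in CD11c high were Gbp3, Gbp5, Gbp7 and Igtp. Below all 5 lay 3 genes in each PRMT1FL library, against 36.5% of all genes for CD11c low and 36% for CD11c high, and 4 in PRMT1Cx3cr1-KO, against 31.1%. Sums of markers of other cell types differed between these libraries too. The 8 neutrophil markers summed to 243 to 603 scaled reads on normal diet and to 878, 70.3 and 8.57 on CPZ, above the normal-diet range in the first and below it in the others, and S100a9, Retnlg, Camp, Ltf and Mmp8 were at 0 in PRMT1Cx3cr1-KO. The 10 endothelial and pericyte markers, none of them at 0, summed to 420 to 544 on normal diet and to 1319, 1032 and 910 on CPZ. Flt1 had 454, 598 and 535 of these on CPZ, most of the sum except in PRMT1FL CD11c low. Without it the other 9 summed to 399 to 507 and then 865, 434 and 374, so that only PRMT1FL CD11c low lay above the normal-diet range. Pecam1, of the same list, was lower in every CPZ library, at 206 to 236 on normal diet against 82.2, 27.4 and 72.4. The 10 monocyte and border macrophage markers summed to 378 to 703 and then 485, 250 and 461, but went different ways. Ly6c2 and Plac8 stood at 19.4 and 14.9 in PRMT1FL CD11c low, against at most 5.11 and 3.36 on normal diet. Ms4a7 and Pf4 were highest in PRMT1Cx3cr1-KO on CPZ, at 87.6 and 54.3. Ccr2 and Mrc1 were below all normal-diet libraries in every CPZ library. The 8 dendritic cell markers were nearly all Tcf4, without which the other 7 summed to 19 to 40.2 and then 33.6, 23.4 and 26.7. The 9 lymphocyte markers were on normal diet nearly all Cd79b, without which the other 8 summed to at most 2.37 there and to 17.2, 44.9 and 13.3 on CPZ, most of it Klrb1c. The part of these cells in the higher effector values was not tested.

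Did PRMT1Cx3cr1-KO microglia differ from PRMT1FL microglia on CPZ? In the CD11c low libraries most effector genes stood lower in PRMT1Cx3cr1-KO, by a modest amount that the test passed for few genes. The median log2 fold was -0.60 against 0.03 over all genes, and 41 of 50 genes were below 0, against 47.2% of all genes. By limma 0 were higher, against 0.971% of all genes, and 2 were lower, against 1.22%. These were Oas2 at -2.03 ± 0.40 (adjusted p = 0.0301) and Gbp5 at -1.67 ± 0.25 (adjusted p = 0.0149). Trim25 and Oasl2 also had adjusted p of 0.0408 and 0.0361 but were inside the fold limit, at -0.69 and -0.88. The comparison is of 1 library with 1 library, and its spread is borrowed from the normal-diet libraries. edgeR called 7 lower, against 2.65% of all genes, adding Gbp2, Isg15, Mx2, Oas3 and Oasl1, whereas DESeq2 called 2 and limma without the filter on low values 0. Without PRMT1FL normal-diet library 1, limma called 4 lower.

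The ratio of PRMT1Cx3cr1-KO to PRMT1FL scaled reads in CD11c low had a median of 0.649 over the 51 genes, from 0.243 for Oas2 to 1.69 for Samd9l. Its exact 95% interval, which covers counting error only, lay below 1 for 37 of the 50 tested genes and above 1 for 4, against 17.7% and 25.1% of all genes. Between replicate libraries of the normal diet the same interval lay below 1 for 4 to 14 of the 50 genes and above 1 for 2 to 5, so that replicates too differed by more than counting error. Among the lowest ratios were Oas3 at 0.286 (95% interval 0.187 to 0.425), Isg15 at 0.372 (95% interval 0.275 to 0.497) and Ifi44 at 0.319 (95% interval 0.154 to 0.609). The genes above 1 were Samd9l, Gbp7 at 1.50 (95% interval 1.23 to 1.83), Rnf213 at 1.47 (95% interval 1.37 to 1.58) and Dtx3l. Ratios close to 1 were those of Lgals3bp at 1.01 (95% interval 0.934 to 1.09) and Bst2 at 1.0 (95% interval 0.809 to 1.24).

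**Figure D5:**
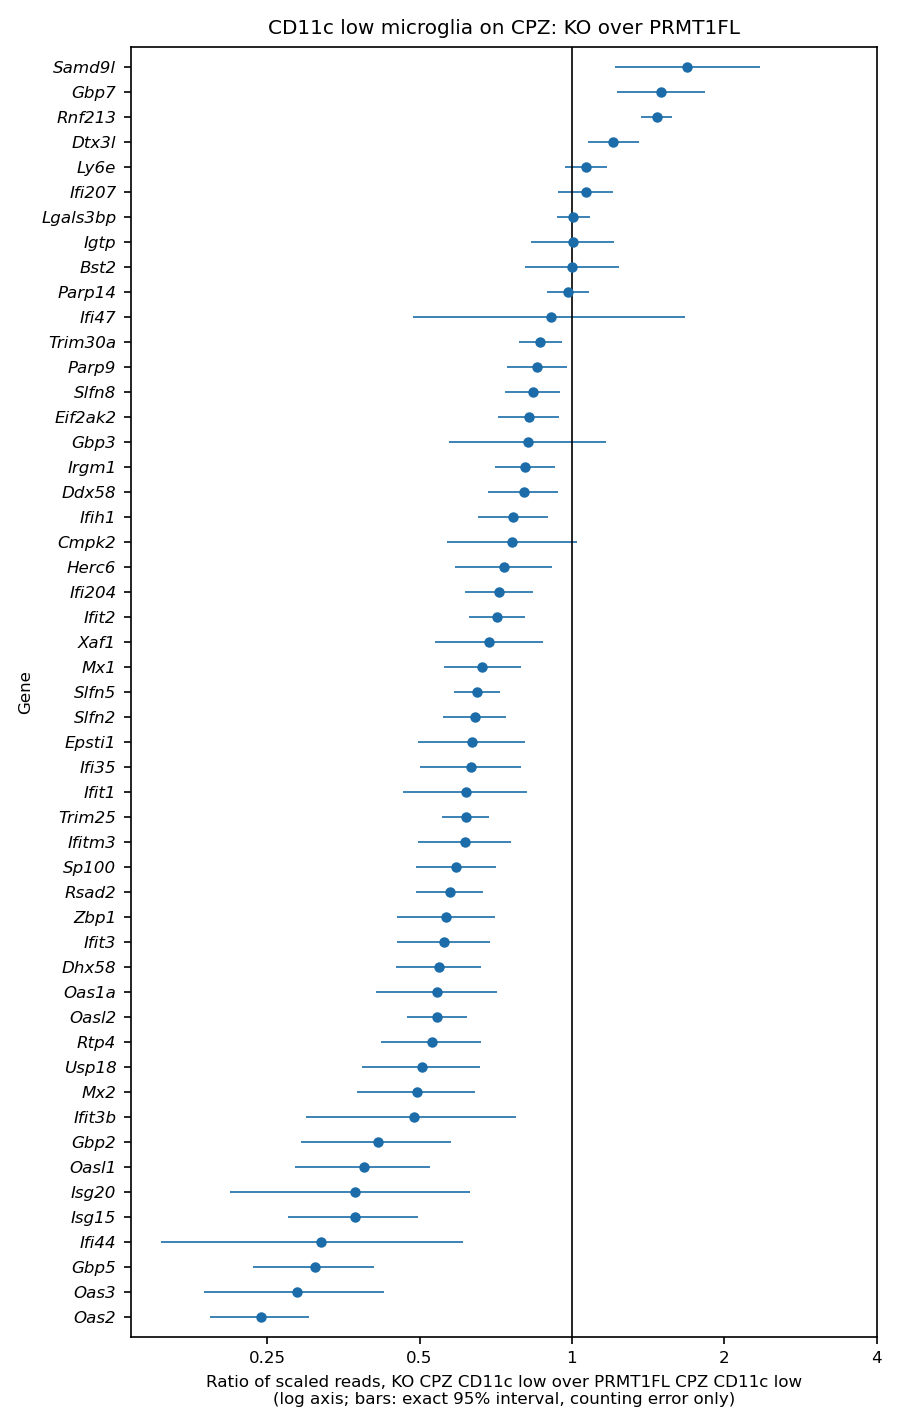
Ratio of scaled reads in PRMT1Cx3cr1-KO (KO) over PRMT1FL CD11c low microglia on CPZ for each of the 51 effector genes (log axis), with the exact 95% interval for counting error. Most genes lie left of the line at 1, from Oas2 at 0.243 upward, and 4 lie right of it with their whole interval.

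By class, all members were below 0 on the log2 scale for the IFIT genes, the ISG15 genes, the OAS genes, the schlafens and the genes of nuclear bodies and others, with medians of -0.76, -0.84, -1.35, -0.62 and -0.66. The membrane and secreted effectors and the PARP and ubiquitin ligases had medians of 0.00 and -0.02. The same library pair differed in markers of other cells. The neutrophil sum was 878 in PRMT1FL and 8.57 in PRMT1Cx3cr1-KO, the endothelial and pericyte sum 1319 and 910, the astrocyte sum 1159 and 768, and the oligodendrocyte sum 1595 and 820. Flt1, of the endothelial list, went the other way, at 454 and 535. The monocyte and border macrophage sum was 485 and 461. Only the microglia sum was higher in PRMT1Cx3cr1-KO, at 10638 and 13288. Of its markers Siglech, at 905 and 773, and Aif1, at 131 and 127, went the other way. The part of cell content in the lower effector values was not tested.

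Whether the change on CPZ itself differed between genotypes was tested as an interaction. Its median was -0.49 against 0.05 over all genes, with 40 of 50 genes below 0 against 45.7% of all genes, and 0 genes were higher and 1 lower, against 0.142% and 0.721% of all genes. The 1 gene was Gbp5, with -1.73 ± 0.30 (adjusted p = 0.0353). Oas2 and Isg15 had larger values with wider errors, at -2.21 ± 0.47 (adjusted p = 0.0665) and -2.03 ± 0.50 (adjusted p = 0.0917), and neither passed. The call on Gbp5 was lost without PRMT1FL normal-diet library 2 (adjusted p = 0.0596), without PRMT1FL library 3 (0.0540) or without PRMT1Cx3cr1-KO library 1 (0.0582).

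Against PRMT1FL CD11c high, from which it differed by genotype and gate together, PRMT1Cx3cr1-KO CD11c low had 11 effector genes lower, against 1.36% of all genes, and 1 higher, against 2.49%, with 47 of 50 below 0 on the log2 scale against 49.7% of all genes. The lower genes were Oas2, Oasl2, Slfn5, Rsad2, Ifitm3, Mx1, Lgals3bp, Ifi204, Ifi207, Dhx58 and Epsti1, from -2.05 ± 0.40 for Oas2 (adjusted p = 0.0155) to -1.09 and -1.08 for Dhx58 and Epsti1. The higher gene was Gbp7, at 1.57 ± 0.17 (adjusted p = 6.33e-04). Without PRMT1FL normal-diet library 3 the lower genes numbered 7, and Rsad2, Ifi204, Ifi207 and Epsti1 were not called.

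Within PRMT1FL mice on CPZ, did the CD11c gate separate the effector genes? Of the 50 effector genes 40 were above 0 on the log2 scale for CD11c high over CD11c low, against 51.8% of all genes. The median log2 fold was 0.38 against 0.02 over all genes, 3 genes were higher, against 0.686% of all genes, and 1 was lower, against 1.24%. Lgals3bp had 1167 scaled reads in CD11c low and 2614 in CD11c high, against 637, 542 and 519 on normal diet, and passed at 1.16 ± 0.18 (adjusted p = 0.00993). Ifi207 rose from 411 to 934, at 1.18 ± 0.26 (adjusted p = 0.0364), and Ly6e from 713 to 1428, at 1.00 ± 0.17 (adjusted p = 0.0138). Gbp5 fell, at -1.21 ± 0.25 (adjusted p = 0.0321). The same libraries differed in the sum of the 9 microglia markers, at 10638 in CD11c low and 18105 in CD11c high against 12807 to 17584 on normal diet, in that of the monocyte and border macrophage markers, at 485 and 250, and in that of the neutrophil markers, at 878 and 70.3. Within these lists Tmem119 went against the microglia sum, at 1090 in CD11c low and 959 in CD11c high. Ccr2, at 59.0 and 76.2, and Ms4a7, at 34.4 and 46.9, went against the monocyte and border macrophage sum. The part of cell content in these differences was not tested. Only 1 gene was higher without PRMT1FL normal-diet library 3, without PRMT1Cx3cr1-KO library 1 or without PRMT1Cx3cr1-KO library 2, and Gbp5 was not called without PRMT1FL library 2. The ratio of CD11c high to CD11c low had a median of 1.30 over the 51 genes and the class median log2 fold of the OAS genes was 0.03. When libraries were scaled by total reads, the median of all genes fell to -0.23 and that of the effector genes to 0.13, and Gbp5 and Gbp7 were then lower and 0 of the 50 higher.

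The order with PRMT1FL CD11c high on top, then its CD11c low cells, then PRMT1Cx3cr1-KO, held for 32 of 50 genes, against 17.1% of all genes. PRMT1Cx3cr1-KO was the lowest of the 3 for 40 genes, against 32.6%, and PRMT1FL CD11c high the highest for 39, against 34.2%. PRMT1Cx3cr1-KO was the highest for 2, Samd9l and Gbp7, against 35.7%, and PRMT1FL CD11c low for 9, among them Isg15 and Gbp2, against 30.1%. Itgax had the same order, as given above, but it encodes the CD11c on which these libraries were gated.

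Upstream of the effector genes, the interferons themselves were hardly read. Of 11 ligand genes 9 had 0 reads in all 8 libraries, and the highest value was 4 reads, for Ifnb1 in PRMT1FL CD11c low. The receptor chains were called for 0 of 5 tested genes in every comparison. Ifnar1 had 644, 709 and 647 scaled reads in PRMT1FL on normal diet and 864, 1147 and 917 on CPZ. Among the transducers, Irf7, the factor that amplifies the type I response, had 57.2, 40.3 and 50.8 in PRMT1FL and 47.3 and 31.5 in PRMT1Cx3cr1-KO on normal diet versus 355, 442 and 205 on CPZ, without overlap. It passed in all 3 comparisons, at 2.83 ± 0.26, 3.15 ± 0.26 and 2.38 ± 0.27. Stat2 rose in PRMT1FL, by 1.11 in CD11c low and 1.48 in CD11c high, and had 0.29 in PRMT1Cx3cr1-KO, with no call.

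Over normal diet, 8.73%, 9.03% and 5.1% of all genes were higher in the 3 CPZ libraries, and 4.1%, 7.22% and 3.37% lower. Of 11 sensors and adaptors only Ikbke, a kinase that activates IRF3 and IRF7, was called. It had 4.67, 11.2 and 9.84 scaled reads in PRMT1FL and 5.52 and 6.82 in PRMT1Cx3cr1-KO on normal diet and 122, 150.5 and 33.3 on CPZ, with log2 folds of 3.76 ± 0.49, 4.06 ± 0.49 and 2.27 ± 0.52. Its mean on normal diet was under 10 in both genotypes, so Ikbke entered the test through its CPZ values. Among 6 feedback genes Socs1, an inhibitor of JAK kinases, was lower in PRMT1Cx3cr1-KO (-1.46 ± 0.37) and in CD11c high cells of PRMT1FL (-1.21 ± 0.35), and Cish was higher in PRMT1FL CD11c low (1.39 ± 0.38). In a further list of 61 interferon-induced genes outside the 51, of which 49 were tested, 18, 20 and 11 were higher in the 3 CPZ libraries over normal diet. Across all genes 8.73%, 9.03% and 5.1% were higher. Of the 49, 1, 2 and 1 were lower, against 4.1%, 7.22% and 3.37% of all genes. How many of the 49 entered the test only through CPZ values was not counted. The list included the chemokine gene Cxcl10, at 2.46, 2.19 and 1.77, and Helz2, at 2.62, 2.96 and 1.84. The lower genes were Irgm2 in both PRMT1FL libraries and Trim30b in PRMT1FL CD11c high and PRMT1Cx3cr1-KO, whereas Iigp1, like Irgm2 an immunity-related GTPase gene, was higher in all 3.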

How the data were processed

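The deposited signal values per gene were made by the authors with Bowtie2 alignment, SAMtools duplicate removal and HOMER quantification of single-end reads, normalized by multiplying reads by 1 factor per library and table. The labels name hg19, GRCm38 and mm10, and the coordinates are those of mouse. The authors' own folds and p-values stand in further columns, which were not used. Reads were recovered by dividing by the factor, and 100% of values came out whole within 0.1 of a step. Of 25238 genes, 84 were left out because tables differed by more than 1 read and 5%.

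Reads were scaled by the median of ratios. Genes with a mean of at least 10 were fitted as log2(scaled reads + 1) in limma 3.58.1 (R 4.3.3), in 1 model of all 8 libraries with 5 group means. P-values were two-sided and adjusted by Benjamini-Hochberg over 11230 genes. Folds of low genes are understated on this scale. The script was tested on simulated data. Alternatives were edgeR 4.0.16 and DESeq2 1.42.0 on the recovered reads, other scalings, pseudocounts and filters, and leaving out each normal-diet library. The effector genes and the lists of pathway genes, markers and named genes were chosen with earlier results of these data known. Values were to be given for the 2 most read genes of each class, the 3 highest and 3 lowest folds of each comparison and the called genes, of which the text holds a subset. Not every gene of the pathway list is reported here.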

Additional observations from a re-analysis of the deposited data

Results flagged for a closer look

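Gbp5 moved in opposite directions on CPZ in the CD11c low libraries of the 2 genotypes, with 1 CPZ library for each. In PRMT1FL CD11c high it also stood below normal diet, at a log2 fold of -0.64. In the CD11c low libraries its change over normal diet was 0.58 on the log2 scale in PRMT1FL and -1.15 in PRMT1Cx3cr1-KO, and the interaction term that tests this difference was -1.73 ± 0.30 (SE; limma adjusted p = 0.0353). Each CPZ value is 1 library. Over the alternatives run the adjusted p ranged from 0.0125 to 0.132.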

How the results depend on the processing

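Of the 108 calls on single effector genes, 0 changed sign and 64 were kept under every alternative in which the gene was tested. Genes of low mean, such as Ifit1 at 49.1, were not tested with the filter at a mean of 50. The 64 were 24 of 31 in PRMT1FL CD11c low and 28 of 35 in CD11c high over normal diet. The others were 9 of 23 in PRMT1Cx3cr1-KO over normal diet and 3 of 12 in PRMT1Cx3cr1-KO over PRMT1FL CD11c high. None of the 7 calls between CPZ libraries of PRMT1FL, between CD11c low genotypes or in the interaction was kept under all. The causes of the changes below were not tested. For PRMT1FL CD11c low over normal diet the median log2 fold was 1.44 with total-read scaling, 1.19 with a filter at a mean of 50 and 1.45 from its own deposited table. For CD11c high it was 1.50, 1.39 and 1.47, and 1.56 with a pseudocount of 5, and 3 genes were lower without the fold limit. For PRMT1Cx3cr1-KO over normal diet 1 gene was lower with a pseudocount of 5, 9 were higher and 1 lower without a filter, and the median was 0.60 with the filter at 50. For CD11c high over low, total-read scaling gave 0 higher and 2 lower with a median of 0.13, no filter gave 0 and 0, edgeR and no fold limit gave 2 lower each, and DESeq2 and thinned reads, an alternative chosen after seeing the data, gave 0 lower each. For PRMT1Cx3cr1-KO over PRMT1FL CD11c low, total-read scaling gave 4 lower and a median of -0.71, no filter 0, edgeR 7 and no fold limit 4. Over CD11c high they were 7 lower with a median of -0.80, 2 without a filter and 22 without the fold limit, and Gbp3 turned from 0.02 to -0.44 with thinned reads, neither past the threshold. In the interaction total-read scaling gave a median of -0.62, a pseudocount of 5 gave 2 lower, no filter 0, edgeR 4 and DESeq2 2. Leaving out 1 normal-diet library gave medians of -0.18 to 0.081 for genotype on normal diet, 1.32 to 1.40 and 1.58 to 1.70 for PRMT1FL CD11c low and high, 0.81 to 0.97 for PRMT1Cx3cr1-KO (0 to 2 lower) and -0.67 to -0.37 for the interaction (0 to 2 lower). It gave 1 to 4 higher and 0 to 1 lower for CD11c high over low, 2 to 4 lower for genotype in CD11c low and 7 to 13 lower against CD11c high. Replicate numbers did not pair the normal-diet libraries (correlation of deviations 0.0098), and a replicate block left 0 higher and 0 lower with a median of -0.05. Total-read scaling moved the median of all genes to -0.15 for CD11c high over normal diet and to 0.14 for PRMT1Cx3cr1-KO over CD11c high. The CPZ groups have 1 library each, and the shallowest, with 1579737 reads, limits the low genes most.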
